A study of Drosophila melanogaster with 6 samples.

Results

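Cluster 8 of the deposited single-nucleus RNA data, which the deposited annotation names glial cell, was examined here across feeding and starvation. Its members were taken as the annotation lists them. They were 1413 of 43027 nuclei, or 3.28%. The nuclei came from female *Drosophila melanogaster* without heads, so the glia that could be sampled were those of the nerve cord and the nerves and not those of the brain. All flies carried PromE-gal4, which drives Gal4 in oenocytes, with Tub-gal80ts, which holds Gal4 back at low temperature. They were reared at 18 °C and moved to 29 °C before collection, and the fed flies had the same genotype and temperatures as the starved ones. The labels of every library give both 7 and 5 days at 29 °C, and 48 h for collection. In the paper's methods, adults were 2 days old when moved to 29 °C. Age at collection is not stated for each group. The 3 groups were fed flies, flies starved to day 2 and flies starved to day 5, with 2 libraries each. By the paper's methods, starved flies were kept on agar without sugars, proteins or lipids. Salts were added to it, among them those of copper, zinc, iron and manganese, while other flies had standard food. It is not stated whether the 2 libraries of a group came from separate flies, so the p-values measure only the spread between these libraries, which may be technical. Cluster 8 held 309 and 325 nuclei in the fed libraries, 258 and 250 at day 2 and 129 and 142 at day 5. No cell barcode of a cluster 8 nucleus was shared between libraries. The median number of transcript molecules counted by unique molecular identifiers (UMIs) per nucleus fell in the order of the groups, with 1180 and 1079 in fed, 1043 and 1075.5 at day 2 and 967 and 961.5 at day 5. Levels are given below as UMIs of a gene per 10000 UMIs of the nuclei summed in a library.

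Insect glia feed, insulate and clear up after neurons. Astrocyte-like glia take up glutamate and GABA at synapses, ensheathing and wrapping glia line neuropil and axons, cortex glia surround neuron cell bodies, and perineurial and subperineurial glia form the blood-brain barrier that passes sugars and lipids from the hemolymph. Nearly all of them express *repo*, which encodes a homeodomain transcription factor of glia.

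The label was first checked against *repo*, whose gene lies on chromosome 3R from 18236192 to 18239602 on the plus strand in the BDGP6.54 annotation and overlaps CG7156 on the other strand. The use of strand in the counting is not stated. A *repo* UMI was found in 122 of the 1413 cluster 8 nuclei, or 8.63% (exact 95% interval 7.22% to 10.2%), against 57 of the 41614 other nuclei, or 0.137%, and 1 of 1335 nuclei of the neuron cluster, whose median depth was 1946 UMIs against 1056 in cluster 8. With every nucleus thinned to 500 UMIs the shares were 3.75% in cluster 8 and 0.0481% in the other nuclei. Cluster 8 thus had the highest *repo* level of the 26 clusters, at 0.771 UMIs per 10000, and the next highest cluster had 0.0897. Such intervals cover counting error only. Of the 8 general glial markers in the matrix, 2 were highest of the 26 clusters in cluster 8, *repo* and the glutamate transporter gene *Eaat1*, while cluster 8 ranked second in *nrv2* and *bdl*, sixth in *Gs2* and 12th in *drpr*. The same held for 4 of 5 astrocyte markers, among them *alrm*, an astrocyte surface protein, and *Gat*, a GABA transporter, for 3 of 5 ensheathing and wrapping markers, for all 3 cortex markers, *wrapper*, *zyd* and *Cyp4g15*, and for 0 of 4 perineurial and 0 of 7 subperineurial markers. The neuronal gene *nSyb*, which encodes synaptic vesicle synaptobrevin, had a UMI in 1.34% of cluster 8 nuclei against 56.7% of the neuron cluster, and *Syt1*, a calcium sensor of synaptic vesicles, in 1.70% against 97.4%. *elav*, an RNA-binding protein gene of neurons, had one in 15.8% against 67.3%, with 10.1% in all nuclei outside cluster 8, and cluster 8 ranked 3 of 26 in its level (1.5 UMIs per 10000 against 6.51 in the neuron cluster). The early glial genes *gcm* and *gcm2* were not among the 12925 genes analysed.

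*repo* was however found mostly in a part of the cluster. When the 1413 nuclei were clustered again without the 707 genes called as different between the groups, 18 sub-clusters were formed. Genes that were not called or not tested could be used, and some of them may respond to starvation. In 8 of the 18 sub-clusters at least 10% of nuclei had a *repo* UMI. These 8 sub-clusters held 510 nuclei, or 36.1% of cluster 8, and 117 of the 122 nuclei with *repo*. A *repo* UMI was found in 22.9% of their nuclei (exact 95% interval 19.4% to 26.8%), in 1 of 360 nuclei of sub-clusters 1 and 2, and in 4 of 543 nuclei of the remaining 8 sub-clusters. The same 510 nuclei were in *repo*-bearing sub-clusters at a lower and at a higher resolution, and 511 nuclei, these 510 included, with more neighbours. Most of cluster 8 was therefore not marked by *repo* in these data, and the data went partly against the label. In what follows the 3 classes are called by their genes. They were set after the sub-clusters had been seen, and their defining levels are a description and not a test.

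**Figure D1:**
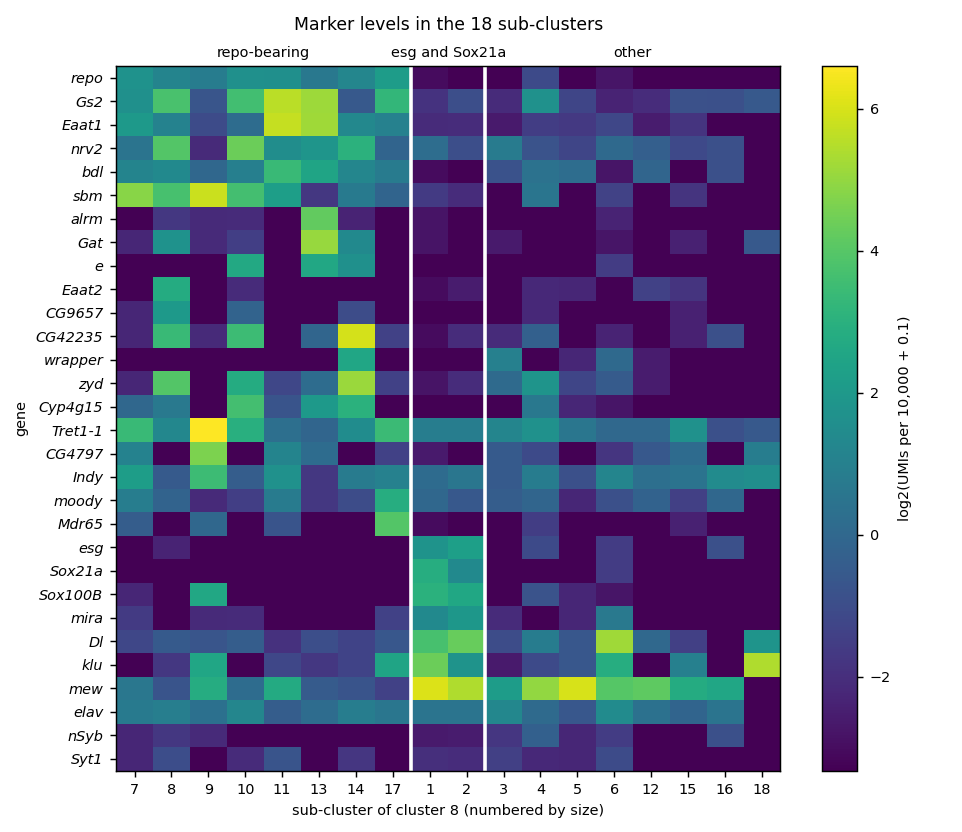
Level of marker genes (rows, log2 of UMIs per 10000 plus 0.1) in the 18 sub-clusters of cluster 8 (columns, numbered by size), with white lines between the classes. The *repo*-bearing sub-clusters on the left carry *repo* at 1.46 to 4.42 UMIs per 10000, *esg* and *Sox21a* stand in sub-clusters 1 and 2, and the sub-clusters on the right carry few of the glial genes.

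The *repo*-bearing sub-clusters differed in which glial genes they carried. Sub-cluster 13, with 54 nuclei, was astrocyte-like: *alrm* stood at 18.7 UMIs per 10000, and the next highest sub-cluster had 0.201, *Gat* at 33.7 against 3.22, and *Eaat1* at 36.5. The remaining astrocyte markers were not highest there. *e* stood at 6.04 against 6.32 in sub-cluster 10, and *Gabat* at 0.417 (2 UMIs) against 3.04 in sub-cluster 17. Sub-cluster 11, with 60 nuclei, had more *Eaat1* (52.8) and *Gs2* (47.0), the glutamine synthetase that turns glutamate into glutamine, but no UMI of *alrm* or *Gat*. It was led by *Lgr4*, a leucine-rich repeat receptor, at 39.4, and it was left unnamed.

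For 3 of the 5 ensheathing and wrapping markers the level was highest in sub-cluster 8, with 91 nuclei, which was ensheathing-like. The glutamate transporter *Eaat2* stood at 6.83 (next highest 0.283), the solute carrier *CG9657* at 3.92 and its relative *CG6723* at 0.603 (6 UMIs, next highest 0.417). The remaining markers were not highest there: *CG42235* stood at 10.5, and *Oaz* had no UMI there and was highest in sub-cluster 10. Sub-cluster 14, with 39 nuclei, carried *zyd*, a sodium-calcium exchanger of cortex glia, at 34.6, *wrapper*, an immunoglobulin protein of cortex glia, at 5.70, and the solute carrier *CG42235* at 62.3. Since *CG42235* is a marker of ensheathing glia and the third cortex marker, *Cyp4g15*, was highest in sub-cluster 10, sub-cluster 14 was left unnamed. Sub-cluster 10, with 72 nuclei, was led by *mmd* and also carried the monoamine transporters *Vmat* (27.5) and *DAT* (5.80).

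Barrier genes stood apart in another pair of sub-clusters. Sub-cluster 9, with 75 nuclei, was perineurial-like, with the trehalose transporter *Tret1-1* at 97.2 UMIs per 10000 (next highest 10.8), the sugar transporter *CG4797* at 24.9 and the citrate transporter *Indy* at 11.1. The remaining perineurial marker, *vkg*, was not highest there, at 3.36 against 7.64 in sub-cluster 10. Sub-cluster 9 also had the highest level of *sbm*, an amino acid transporter, at 55.6. Sub-cluster 17, with 25 nuclei, was subperineurial-like: the efflux pump *Mdr65* stood at 15.2 (next highest 0.905), the barrier receptor *moody* at 7.18 and the septate junction gene *Gli* at 3.59. *kune* and *sinu* were also highest there, on 6 and 4 UMIs. The remaining markers of the list were not: *cold* had no UMI there, and *Nrx-IV* stood at 0.828 against 1.11 in sub-cluster 8. Sub-cluster 17 had the highest *repo* level of all, at 4.42. Sub-cluster 7, with 94 nuclei, was led by the myosuppressin receptor *MsR2* and carried the ammonium transporter *Rh50* at 41.5 and *sbm* at 28.4.

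Sub-clusters 1 and 2, with 360 nuclei or 25.5% of cluster 8, were marked by genes that are known from intestinal stem cells and enteroblasts. *esg*, a Snail-family repressor of differentiation, had a UMI in 39.4% of their nuclei against 0.196% of the *repo*-bearing ones, the Sox factor *Sox21a* in 36.7% against 0 of 510, which allows a share of nuclei with a UMI of up to 0.588%, and *Sox100B* in 53.6% against 0.784%. The Notch ligand *Dl* stood at 14.6 UMIs per 10000 against 0.441. Among all 26 clusters, *esg*, *Sox21a*, *Sox100B* and *mira*, an adaptor of asymmetric division, were highest in cluster 8. Of the 122 nuclei with *repo*, 1 also had *esg*, 1 *Sox21a*, 3 *mira* and 0 *Sox100B*, whereas 62 of the 149 nuclei with *esg* also had *Sox21a*. In the neuron cluster 2 of 1335 nuclei had *esg* and 4 had *Sox21a*. These nuclei were also deeper than the others when fed, with medians of 1514 and 1395 UMIs, but not at day 5, with 927 and 975.

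The remaining 543 nuclei (38.4%) fell into 8 sub-clusters led by unlike genes. Sub-cluster 3 was led by *RhoGAP100F* and carried the secreted signal *Wnt4* at 46.2 UMIs per 10000. Sub-cluster 4 was led by the hemocyte clotting gene *Hml* and the homeobox gene *Lim1*, and sub-cluster 18, of 14 nuclei, by the prophenoloxidases *PPO1* (62.2) and *PPO2* (70.3) with *lz* (67.4), a Runt-domain factor of crystal cells. Sub-cluster 6 was led by *lncRNA:roX1* and *sca* and had the highest *Dl* level, 36.7. Sub-cluster 15 was led by *lncRNA:CR43314* and *upd1*, a cytokine of the JAK/STAT pathway (18.8), and sub-cluster 16 by *Wnt6* (47.7), with *hh* (34.0) and the highest *Wnt4* level (106). None of them was given a cell type.

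The share of cluster 8 among all nuclei was 3.07% and 3.22% in fed, 3.40% and 3.34% at day 2 and 3.42% and 3.53% at day 5. Every starved library lay above both fed libraries, but the test over the 26 clusters made no call: the log2 difference was 0.10 ± 0.07 (SE, limma, adjusted p = 0.295) at day 2 and 0.15 ± 0.07 (adjusted p = 0.123) at day 5, where 46.2% and 61.5% of the clusters were called. Shares depend on what the other tissues gave. Among nuclei outside the ovary and germline clusters the difference was 0.22 (adjusted p = 0.0249) at day 2 and -0.05 (adjusted p = 0.47) at day 5.

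Within cluster 8 the *repo*-bearing class took 33% and 36.6% of nuclei in fed, 36% in each library at day 2 and 36.4% and 41.5% at day 5, so the groups overlapped. The *esg* and *Sox21a* class took 29.4% and 28.6% in fed and less in every starved library, with 24.8% and 19.6% at day 2 and 24.8% and 21.8% at day 5. Most of that difference lay in sub-cluster 1, the sub-cluster with the most *Sox21a*, which went from 17.5% of the fed nuclei to 10.8% at day 2 and 10.3% at day 5. Among the glial sub-clusters, the *Eaat1* and *Lgr4* sub-cluster 11 went from 3% to 3.74% and 8.12%, with both starved groups above both fed libraries. The *Hml* and *Lim1* sub-cluster 4 went from 4.73% to 8.27% and 10.3%, and the *sca* sub-cluster 6 from 5.52% to 10.8% and then 2.21%. These shares rest on few nuclei in the day 5 libraries and were not tested.

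**Figure D2:**
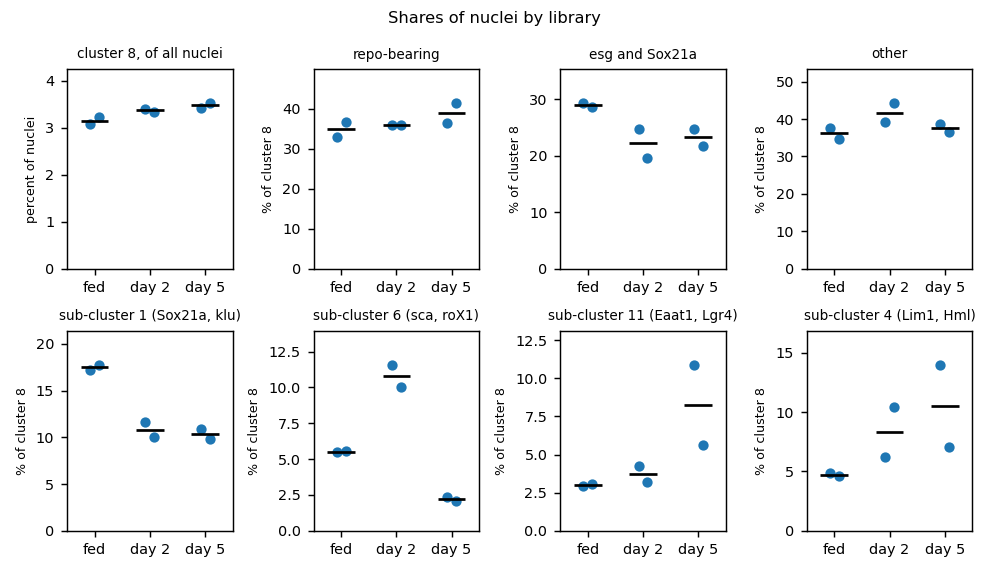
Share of nuclei per library (points) and mean of the 2 libraries (bars) in fed, day 2 and day 5, for cluster 8 among all nuclei and for its classes and 4 of its sub-clusters among cluster 8 nuclei. Cluster 8 stays between 3.07% and 3.53% of all nuclei, while sub-cluster 1 is lower and sub-cluster 11 higher in the starved libraries.

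Starvation was then compared gene by gene over the whole cluster. Of 4546 genes tested, 85 (1.87%) differed between day 2 and fed, 3 of them higher (0.0660%) and 82 lower (1.80%), and 652 (14.3%) between day 5 and fed, 78 higher (1.72%) and 574 lower (12.6%) (limma on the mean deposited value per library). A mean of log values falls with the UMIs per nucleus, which were lower in starved flies. The second test, on summed UMIs scaled to each library's total, called 58 genes (1.28%; 12 higher, 0.264%, and 46 lower, 1.01%) at day 2 and 306 (6.73%; 102 higher, 2.24%, and 204 lower, 4.49%) at day 5. Both tests called 40 genes at day 2, 2 higher and 38 lower, and 239 at day 5, 58 higher and 181 lower, and the genes below are taken from these unless said otherwise. Between day 5 and day 2, 223 genes (4.91%) differed, 41 higher (0.902%) and 182 lower. The count at day 5 rested on both fed libraries: it was 96 without fed replicate 1 and 109 without fed replicate 2, and at day 2 it was 46 and 50, and 51 without day 2 replicate 2. A log2 fold change below comes from the summed UMIs, and its median over all tested genes was 0.00 at day 2 and -0.09 at day 5.

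At day 2 both tests called 2 higher genes. *MtnA*, a metallothionein that binds copper and other metals (chromosome 3R, 9783407 to 9784370, minus strand), stood at 3.77 and 4.59 UMIs per 10000 in fed, 9.77 and 11.2 at day 2 and 25.4 and 21.3 at day 5. The groups did not overlap, and each step was upward. The log2 fold change was 1.33 ± 0.15 (SE, n = 2 libraries a group, limma adjusted p = 0.00325) at day 2 and 2.48 ± 0.15 (adjusted p = 9.07e-05) at day 5. *CG32444* rose by 2.56 ± 0.39 at day 2 from 0.102 and 0.12 UMIs per 10000 to 0.693 and 0.701. It was counted in 78 UMIs in all, and its adjusted p in the first test was 0.331 without fed replicate 1, 0.18 without fed replicate 2 and 0.0522 without day 2 replicate 2. It overlaps an antisense RNA. *MtnA* was higher in all 3 classes, among them the *repo*-bearing one, where it went from 7.94 and 8.25 to 12.4 and 13.9 and then to 30.9 and 20.2.

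At day 5 the metallothioneins led the genes that rose. Since the starvation medium held added metal salts, the metals in the food and the lack of food cannot be told apart here, and their parts were not tested. *MtnE* stood at 0.102 and 0.14 UMIs per 10000 in fed, 0.376 and 0.409 at day 2 and 1.97 and 1.59 at day 5 (log2 fold change 3.79 ± 0.37 at day 5, limma adjusted p = 0.000499), and *MtnD* at 0.0407 and 0.14 in fed and 1.21 and 1.31 at day 5 (3.88 ± 0.59, adjusted p = 0.00658). Both fed values of *MtnD* and *MtnE* rest on a few UMIs. The other genes with the smallest adjusted p were the non-coding *lncRNA:CR34335* (1.37 ± 0.18), *CG32521* (1.11 ± 0.12), *CG14245* (3.19 ± 0.47), *CG5953* (1.43 ± 0.20), *CG5888* (0.80 ± 0.16), *RhoGAP100F* (1.62 ± 0.22) and *Glut4EF*, a transcription factor gene (1.02 ± 0.12). *CG32521* stood at 12.7 and 11.4 in fed, 15.9 and 15.6 at day 2 and 24.4 and 27.7 at day 5, and its level was highest in the *repo*-bearing class (37.6 against 7.92 and 5.47). *RhoGAP100F* is nearly absent from the *repo*-bearing class, with 0.136 UMIs per 10000, and in sub-cluster 3, which carries most of it, it went from 28.1 and 21.3 to 43.0 and 47.6. Without fed replicate 1 the calls of *CG5953*, *CG5888*, *RhoGAP100F* and *Glut4EF* were lost, at adjusted p of 0.0662 to 0.0736, and without fed replicate 2 those of the same 4 and *CG14245*, at 0.0548 to 0.0697.

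Among the general glial markers, 2 of 8 tested genes rose at day 5 and none fell, where 1.72% of all tested genes rose. *Eaat1* (chromosome 2L, 9333567 to 9341925, plus strand) stood at 2.32 and 2.53 UMIs per 10000 in fed, 3.18 and 2.72 at day 2 and 6.1 and 4.38 at day 5. The day 5 libraries lay above all others (log2 fold change 1.10 ± 0.20, limma adjusted p = 0.0261 in the first test and 0.0151 in the second). Within the 2 sub-clusters that carry most of it the level was not higher at day 5: it went from 63.9 and 57.5 to 50.5 and 62.0 in sub-cluster 11 and from 27.2 and 38.0 to 24.3 and 20.9 in sub-cluster 13, while the share of sub-cluster 11 was larger. Without nuclei with at least 2 neuron markers the adjusted p was 0.0697, with the 3 classes weighted alike in every library 0.0842, and it was 0.281 without fed replicate 1, 0.195 without fed replicate 2 and 0.163 without day 5 replicate 1. *bdl*, an immunoglobulin protein of glia that wrap axons, stood at 0.896 and 0.782 in fed, 1.44 and 0.818 at day 2 and 1.91 and 1.99 at day 5 (1.22 ± 0.30, adjusted p = 0.0435 in the second test). Its adjusted p in the first test was 0.0656 without fed replicate 1 and 0.0923 without fed replicate 2.

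*repo* itself was not called. It stood at 0.529 and 0.702 UMIs per 10000 in fed, 0.607 and 0.818 at day 2 and 1.27 and 1.42 at day 5, with a log2 fold change of 1.15 ± 0.31 at day 5 (limma adjusted p = 0.0607 in the first test and 0.0558 in the second). Within the *repo*-bearing class it went from 1.95 and 2.60 in fed to 3.55 and 3.46 at day 5. *Gs2* stood at 2.46 and 2.09 in fed, 7.57 and 5.61 at day 2 and 4.51 and 3.24 at day 5. Its difference at day 2 passed the second test (1.52 ± 0.22, adjusted p = 0.012) and not the first (0.115). The astrocyte gene *alrm* fell at day 5 in the first test (adjusted p = 0.044) and not in the second (-0.72 ± 0.37, adjusted p = 0.28), and the first call was lost without either fed library (0.289 and 0.164), without day 2 replicate 1 (0.0519) and without day 5 replicate 1 (0.171). None of the 3 cortex, 4 perineurial, 5 subperineurial or 2 ensheathing and wrapping markers tested was called at day 5.

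**Figure D3:**
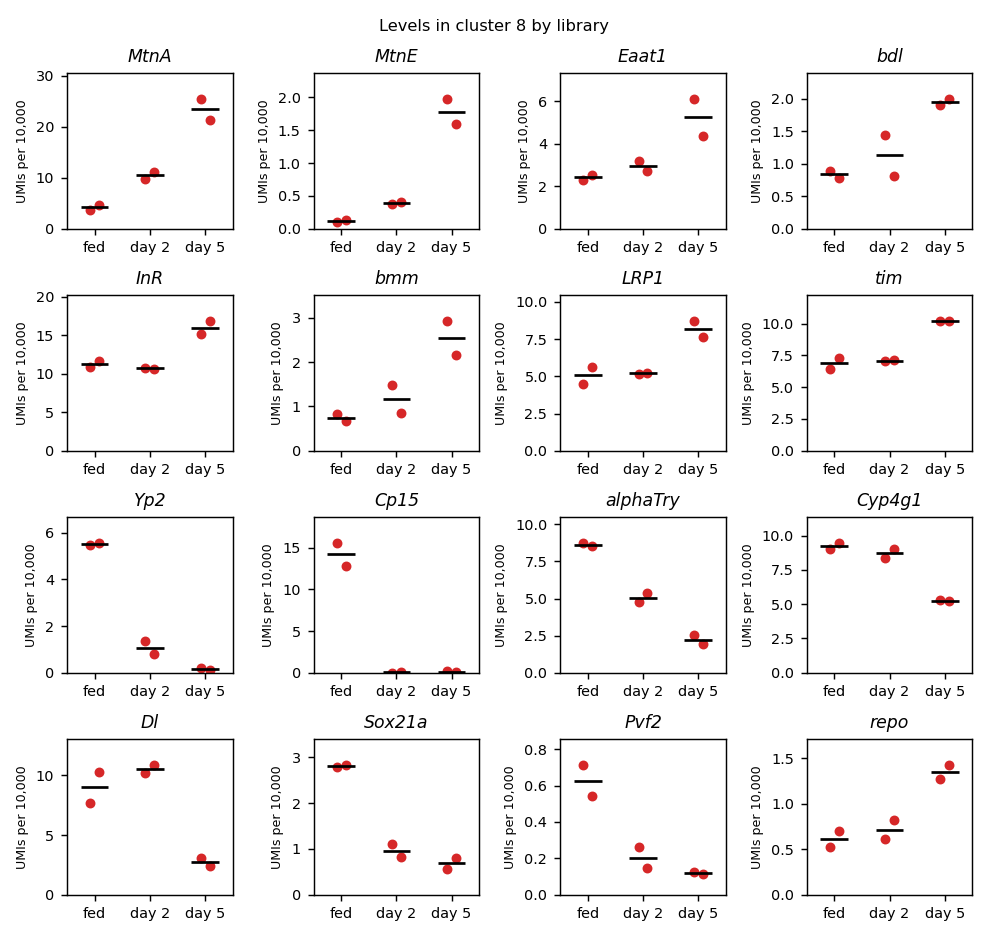
UMIs per 10000 of named genes in cluster 8, with a point for each library and a bar at the mean of the 2 libraries in fed, day 2 and day 5. *MtnA* rises from 3.77 and 4.59 in fed to 25.4 and 21.3 at day 5, *Cp15* falls to below 0.2 at both days, and *Dl* is lower at day 5 only.

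In the pathways by which a cell reads and uses food, the counts are set against the 1.72% of all tested genes that were higher and the 12.6% that were lower at day 5. Of 23 tested genes of insulin and TOR signalling, 1 rose and 1 fell at day 5 and none at day 2. *InR*, the insulin receptor (chromosome 3R, 21570248 to 21619321, minus strand), stood at 10.9 and 11.6 UMIs per 10000 in fed, 10.8 and 10.7 at day 2 and 15.2 and 16.9 at day 5 (log2 fold change 0.51 ± 0.12, limma adjusted p = 0.00747 in the first test and 0.034 in the second). The classes moved apart: *InR* went from 13.4 and 13.2 in fed to 24.1 and 26.9 at day 5 in the *repo*-bearing class, and from 13.3 and 12.7 to 2.98 and 6.86 in the *esg* and *Sox21a* class. These class levels were not tested. The rise of *InR* was not particular to cluster 8: at day 5 it was called higher in 9 and lower in 1 of 18 other clusters. In all other nuclei its log2 fold change was 0.72 (limma interaction adjusted p = 0.233). *Pi3K21B*, the adaptor subunit of PI3 kinase, went from 1.55 and 2.05 to 0.318 and 0.626 (-1.90 ± 0.37, adjusted p = 0.0163 in the second test). Neither call of the first test held without either fed library (0.138 and 0.101 for *InR*, 0.258 and 0.225 for *Pi3K21B*), and that of *Pi3K21B* was also lost without day 2 replicate 2 (0.0543) or day 5 replicate 1 (0.173) and with the classes weighted alike (0.0681). The insulin effector *foxo* stood at 6.05 and 5.72 in fed and 8.14 and 6.77 at day 5, and its target *Thor*, a translation repressor, at 2.44 and 1.77 and at 3.88 and 2.73, and neither was called.

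Of 23 tested lipid-handling genes, 2 rose and 3 fell at day 5, against 1.72% and 12.6% of all tested genes, so the share that fell was near the background. *bmm*, the triglyceride lipase Brummer, stood at 0.835 and 0.662 UMIs per 10000 in fed, 1.47 and 0.847 at day 2 and 2.92 and 2.16 at day 5 (log2 fold change 1.76 ± 0.32, limma adjusted p = 0.0139 in the second test), and its day 5 level was higher than fed in each of the 3 classes. Its rise was not particular to cluster 8: at day 5 it was called higher in 10 and lower in 1 of 18 other clusters. In all other nuclei its log2 fold change was 1.92 (limma interaction adjusted p = 0.843). *LRP1*, a lipoprotein receptor, went from 4.52 and 5.66 in fed to 8.71 and 7.63 at day 5 (0.69 ± 0.16, adjusted p = 0.0343) and was highest in the *repo*-bearing class (12.6 against 1.18 and 3.88). The fatty acid binding protein gene *fabp* fell from 2.38 and 2.09 to 1.14 and 1.25 (-0.87 ± 0.22, adjusted p = 0.047). *Lsd-1*, a lipid droplet perilipin, and *Npc2a*, a sterol carrier, were lower in the first test only. All 5 calls of the first test were lost without fed replicate 1, at adjusted p of 0.101 to 0.306, and without fed replicate 2, at 0.0803 to 0.186. Without day 5 replicate 1 the adjusted p was 0.0516 for *bmm*, 0.087 for *LRP1* and 0.0821 for *Lsd-1*, and without day 5 replicate 2 it was 0.0535 for *Lsd-1* and 0.0772 for *Npc2a*. With the classes weighted alike, that of *LRP1* was 0.0862. *Desat1*, the fatty acid desaturase, stood at 2.34 and 2.07 in fed, 2.23 and 1.96 at day 2 and 2.16 in each library at day 5.

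Of 13 tested genes of transmitter uptake and recycling, *Eaat1* and *bdg*, a transporter of the neurotransmitter symporter family, rose and *sbm* fell at day 5, where 1.72% of all tested genes rose and 12.6% fell. *bdg* went from 2.38 and 3.11 UMIs per 10000 to 4.83 and 4.67 (log2 fold change 0.81 ± 0.19, limma adjusted p = 0.0353 in the second test; 0.174 and 0.112 in the first without fed replicate 1 and 2). The fall of *sbm* held in the first test only (adjusted p = 0.0349), and there not without either fed library (0.206 and 0.234), either day 2 library (0.0516 and 0.0519) or day 5 replicate 1 (0.152). Its summed level was 5.05 and 5.10 in fed and 4.32 and 6.26 at day 5, a log2 fold change of 0.04 ± 0.19, so its direction turned between the tests. In the lists of autophagy (11 tested) and septate junctions (19 tested), none was called at either day, with median log2 fold changes of 0.15 and 0.23 at day 5 against -0.09 over all genes. For sugar uptake and glycolysis, 1 of 17 tested genes was called, *Gapdh2*, a glycolytic dehydrogenase, which was lower at day 5 in the first test (adjusted p = 0.00598, and 0.159 without fed replicate 1). That is below the 12.6% of all tested genes that were lower. Of 17 tested stress genes, 0 rose and 6 fell at day 5 in the first test, where 12.6% of all tested genes fell, and *Hsp26*, a small heat shock protein, fell in both (2.12 and 1.97 in fed, 0.318 and 0.854 at day 5).

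Of 23 tested growth factor genes, 5 were below fed at day 5 and 1 above, and 2 and 1 of them by both tests, where 12.6% and 1.72% of all tested genes were lower and higher. *ths*, an FGF ligand, rose from 2.87 and 2.51 UMIs per 10000 to 5.4 and 5.52 (log2 fold change 1.03 ± 0.17, limma adjusted p = 0.0104 in the second test) and belonged to the class with few glial genes, chiefly to sub-cluster 3. *Dl* stood at 7.72 and 10.2 in fed, 10.2 and 10.9 at day 2 and 3.12 and 2.39 at day 5 (-1.69 ± 0.19, adjusted p = 0.000933). It was highest in sub-cluster 6, whose share was lower at day 5, and in sub-clusters 1 and 2, and it was at 0.441 in the *repo*-bearing class. Within sub-cluster 6 *Dl* went from 39.6 and 44.7 in fed to 1.26 and 17.2 at day 5, with 3 nuclei in each day 5 library. Fed and day 5 levels overlapped in sub-cluster 1 (10.7 and 16, then 11 and 7.33) and in sub-cluster 2 (13.7 and 18.7, then 17.4 and 6.79). These levels were not tested. *Pvf2*, a PDGF and VEGF-like ligand, went from 0.713 and 0.542 to 0.127 and 0.114 (-2.07 ± 0.47, adjusted p = 0.0314). In the first test the calls of *ths* and *Dl* were lost without fed replicate 1 (0.154 and 0.0662) and 2 (0.214 and 0.175), that of *ths* without day 5 replicate 2 (0.0522) and with the classes weighted alike (0.0552), and that of *Pvf2* without fed replicate 1 (0.0759). *aos*, *Pvf3* and *N* were lower in the first test only.

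The falls with the smallest adjusted p were in genes that are known from other tissues. All 16 tested eggshell genes, chorion and vitelline membrane genes of ovarian follicle cells, fell at day 2 and at day 5 in the first test, where 1.80% and 12.6% of all tested genes fell, and 14 and 16 of them by both tests. Their summed level in cluster 8 went from 54 UMIs per 10000 in fed to 1.08 at day 2 and 0.3 at day 5, and in all other nuclei from 64.4 to 1.54 and 0.552. *Cp15* stood at 15.5 and 12.8 in fed, 0.0289 and 0.0584 at day 2 and 0.191 and 0.0569 at day 5. *Cp19* stood at 6.66 and 5.58 in fed and had no UMI in the starved libraries, which is at least 140-fold lower at day 2 and at least 67.9-fold lower at day 5, against a floor of 3 UMIs per group. The *repo*-bearing class shared the level and the fall, with *Cp15* at 19.2 and 18.4 in fed. The part of RNA from other cells in these values was not tested.

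Some yolk and gut genes were lower as well. In the first test, 3 of 8 tested fat body markers fell at day 2, the yolk protein genes, and 5 at day 5. Both tests called 2 of them at day 2 and 3 at day 5. Of 6 tested enterocyte markers, 1 fell at day 2 in the first test only (median log2 fold change of the list 0.47) and 2 at day 5 by both tests (-0.51). Of all tested genes, 1.80% were lower at day 2 and 12.6% at day 5 in the first test. The yolk protein gene *Yp2* fell from 5.46 and 5.56 UMIs per 10000 to 1.36 and 0.789 at day 2 and 0.191 and 0.114 at day 5 (log2 fold change -2.39 ± 0.34 and -4.96 ± 0.34, limma adjusted p = 0.0117 and 9.77e-05). The digestive proteases *Jon65Aiv* (-3.80 ± 0.38 at day 5) and *Jon65Aiii* (-3.08 ± 0.22) and the trypsins *alphaTry* (-1.94 ± 0.18) and *betaTry* (-2.33 ± 0.26) fell at day 5. The lysozyme gene *LysD* was lower at both days (-2.92 ± 0.23 and -2.51 ± 0.23), but reads may be split among near-identical lysozyme genes. *Cyp4g1*, the hydrocarbon synthase of oenocytes, stood at 9.04 and 9.45 in fed, 8.38 and 9.05 at day 2 and 5.28 and 5.24 at day 5 (-0.81 ± 0.13, adjusted p = 0.00842), and in oenocytes its level was 82.2. Lists of other cell types moved beside these genes, while 1.72% of all tested genes were higher and 12.6% lower at day 5 in the first test. Over the list of 8 fat body markers the summed level in cluster 8 was 29.1 and 28.6 in fed and 8.84 and 12.2 at day 5, over 6 oenocyte markers 10.5 and 11 and 6.42 and 5.75, and over 6 enterocyte markers 14.6 and 14 and 6.36 and 5.35. Every marker of these 3 lists had UMIs in cluster 8. The neuron list (11 genes, 2 tested) had 9.31 and 8.43 in fed and 8.27 and 6.15 at day 5, the muscle list (11 genes) 29.9 and 28.1 and 26.8 and 22.5, and none of their tested members was called. The hemocyte list (7 genes) had 3.14 and 3.13 and 5.4 and 5.07, with 1 of 3 tested members, *Ppn*, higher at day 5 in the first test only (adjusted p = 0.0185, and 0.197, 0.251 and 0.0966 without fed replicate 1, fed replicate 2 and day 5 replicate 1).

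Some genes with their highest level in the *esg* and *Sox21a* class were lower in the starved libraries. They were singled out after their values had been seen and say nothing of the class's genes at large. *Sox21a* stood at 2.79 and 2.83 UMIs per 10000 in fed, 1.10 and 0.818 at day 2 and 0.572 and 0.797 at day 5 (log2 fold change -1.55 ± 0.27 and -2 ± 0.27, limma adjusted p = 0.0265 and 0.00364). Every starved library lay below both fed libraries. Within sub-cluster 1 it went from 9.12 and 8.56 in fed to 5.49 and 4.20 at day 2 and 0.522 and 3.02 at day 5, while in sub-cluster 2 it was 1.89 and 1.34 in fed and 5.56 and 5.28 at day 5. *CG43187* (-2.19 ± 0.24), *axed* (-1.43 ± 0.26), *Mctp* (-1.55 ± 0.32), *klu*, a zinc finger repressor (-1.58 ± 0.24), and *mew*, an integrin subunit (-0.65 ± 0.11), were lower at day 5, and each was highest in this class. *esg* was not lower, at 1.12 and 1.26 in fed and 1.02 and 1.31 at day 5 (-0.02 ± 0.26, adjusted p = 0.979), nor was *mira*, at 0.387 and 0.843 in fed and 0.89 and 1.25 at day 5. Within sub-clusters the levels of *mew* overlapped between fed and day 5. They were 66.3 and 67.2 and then 81.4 and 60 in sub-cluster 1, and 39.6 and 44.5 and then 43.1 and 49.8 in sub-cluster 2. In sub-cluster 1 *CG43187* went from 14.2 and 11.4 to 5.22 and 7.33, and *klu* from 27.9 and 16.1 to 11 and 16. With the 3 classes weighted alike, the adjusted p in the first test was 0.0159 for *Sox21a* at day 5 but 0.263 at day 2, and 0.14 for *Mctp*, 0.106 for *mew* and 0.0521 for *klu*. Without the tenth of nuclei with the most UMIs it was 0.269 for *Sox21a* at day 5 and 0.493 at day 2. Without fed replicate 1 all 6 day 5 calls of the first test were lost (0.0507 to 0.263), and without fed replicate 2 those of *axed*, *Mctp*, *klu* and *mew* (0.0552 to 0.138). Those of *Mctp* without day 5 replicate 1 (0.0997) and of *mew* without day 5 replicate 2 (0.0523) were lost as well, and that of *Sox21a* at day 2 without either fed library (0.344 and 0.0876) or either day 2 library (0.0895 and 0.135).

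Some genes of the rise at day 5 were likewise picked after their values had been seen, for what they encode. The clock gene *tim* stood at 6.46 and 7.32 UMIs per 10000 in fed, 7.02 and 7.13 at day 2 and 10.2 in each library at day 5 (log2 fold change 0.57 ± 0.13, limma adjusted p = 0.0341). Within sub-cluster 1 it went from 10.7 and 11.1 to 15 and 18 and then 22.4 and 22. The cell surface gene *side-VIII* (1.21 ± 0.17), the FGF receptor adaptor gene *stumps* (0.93 ± 0.16), the RNA-binding protein gene *Rbfox1* (0.53 ± 0.08) and *fru* (0.71 ± 0.13), a BTB zinc finger factor, also rose. *side-VIII* and *stumps* were the 2 of them with their highest level of all 26 clusters in cluster 8, and both were highest in the *repo*-bearing class, where *side-VIII* went from 13.4 and 11.4 in fed to 31.8 and 22 at day 5. In the first test the calls of these 5 genes were lost without fed replicate 1 (0.107 to 0.227) and without fed replicate 2 (0.0552 to 0.156), and that of *side-VIII* without day 5 replicate 1 (0.0801). With the classes weighted alike, the adjusted p was 0.0941 for *side-VIII* and 0.0822 for *stumps*.

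It was then asked whether cluster 8 responded otherwise than the rest of the fly, whose nuclei came from the same 6 libraries. The difference of the 2 responses was tested as an interaction over all 4546 genes: 18 (0.396%) differed at day 2, 12 of them more upward in cluster 8 (0.264%) and 6 more downward (0.132%), and 246 (5.41%) at day 5, 118 more upward (2.60%) and 128 more downward (2.82%). Leaving out fed replicate 1 or 2 brought these to 0 at day 2 (limma, with 288 and 293 genes at an unadjusted p below 0.05) and to 19 and 22 at day 5, and leaving out day 2 replicate 1 or 2 brought them to 2 and 1 at day 2 and 156 and 160 at day 5. Without day 5 replicate 1 or 2 they were 58 and 62 at day 2 and 454 and 497 at day 5. *MtnA* was not among them (difference 0.27, adjusted p = 0.659 at day 2, and 0.00, adjusted p = 0.996 at day 5). *Eaat1* was, with a log2 change 1.33 higher in cluster 8 than in the other nuclei (adjusted p = 0.0105), as were *Glut4EF* (1.18, adjusted p = 0.00037), *RhoGAP100F* (1.42, 0.0143) and *side-VIII* (0.96, 0.031). *klu* (-3.16, 0.000595), *Pvf2* (-2.44, 0.0167) and *Dl* (-1.01, 0.0339) changed more downward than in the pooled other nuclei. Taken cluster by cluster at day 5, *klu* was called higher in 3 and lower in 1 of 16 other clusters tested. *Dl* was called lower in 5 of 16 and higher in 0, *Eaat1* lower in 4 of 13 and higher in 0, and *Pvf2* was called in 0 of 3. *Desat1* was not called within cluster 8, and its change there was 1.22 lower than in the pooled other nuclei (adjusted p = 0.0015), but of 18 other clusters it was called higher in 1 and lower in 0. On the mean deposited value 234 genes differed at day 5 and 3 at day 2, of which 75 and 0 were among the 246 and 18.

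Against the neuron cluster, whose cells lie beside glia in the nerve cord, 3 of 3986 genes (0.0753%) differed in response at day 2, 1 more upward (0.0251%) and 2 more downward (0.0502%) in cluster 8, and 17 (0.426%) at day 5, 10 more upward (0.251%) and 7 more downward (0.176%). At day 5 *fru* (difference of the mean deposited values 0.888, limma adjusted p = 0.000572), *side-VIII* (0.853, adjusted p = 0.0102), *CG5953*, *Rbfox1* and *tim* changed more upward in cluster 8. On summed UMIs 36 genes differed at day 5 and 2 at day 2, of which 3 and 0 were among the 17 and 3. Without fed replicate 1 or 2 the counts were 0 at both days (limma, with 186 and 206 genes at an unadjusted p below 0.05 at day 2 and 344 and 345 at day 5). Without day 2 replicate 1 or 2 they were 0 at day 2 (175 genes each at an unadjusted p below 0.05) and 5 at day 5, and without day 5 replicate 1 or 2 they were 15 at day 2 and 26 and 106 at day 5.

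**Figure D4:**
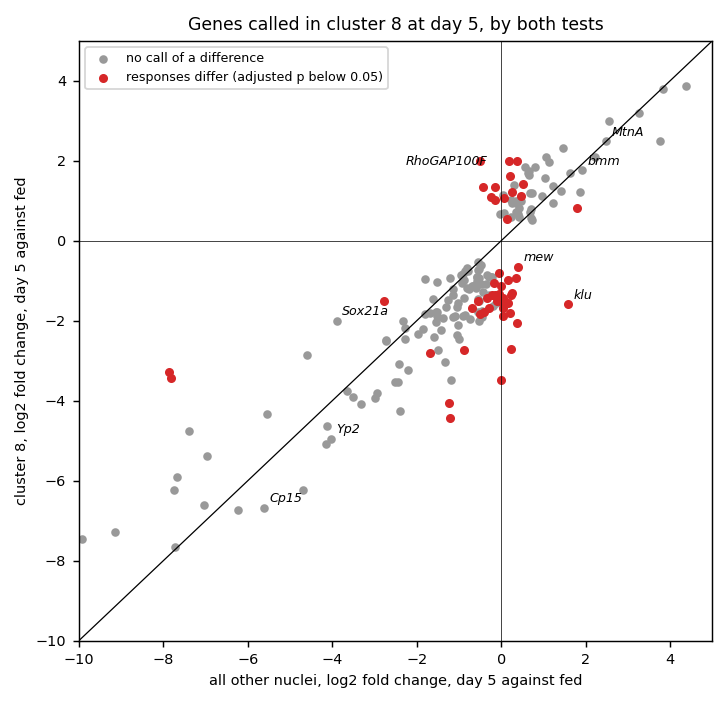
Log2 fold change from fed to day 5 in all other nuclei (x axis) and in cluster 8 (y axis) of the genes that met the rule for naming, with the line of equal change. *MtnA* lies near the line, and *klu* and *RhoGAP100F* lie away from it. Red points, 14 of the 58 higher and 36 of the 139 lower genes, are those whose responses differ at an adjusted p below 0.05. Of all 4546 tested genes, 5.41% differed. The plotted genes were chosen for their change in cluster 8, which favours such calls, so the counts are a description and not a test.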

How the data were processed

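Nuclei were freed from flash-frozen flies, sorted on DRAQ7, a DNA dye, and captured in 10X 3′ reactions. The submitters' processing notes name Cell Ranger 6.1.1, Seurat and the genome build BDGP6. The deposited values are on a natural log (ln) scale: the authors' matrix holds ln of 1 plus UMIs scaled to 10000 per nucleus and by a factor for each gene. UMIs were worked back from it, and 99.99% of them came out whole within 0.05. The deposited filters left 499 to 24995 UMIs a nucleus, and library totals were 7562530 to 22940553 UMIs. No per-sample column was left unused (0). Genes with a UMI in at least 10 cluster 8 nuclei of at least 2 libraries were tested with limma 3.58.1 in R 4.3.3 (all 6 libraries in 1 fit, moderated variances with a trend, Benjamini-Hochberg adjustment, threshold 0.05), first on the deposited values averaged per library, second on log2 of summed UMIs plus 0.5 per library total plus 1, times 10000. A count model was not used because the deposited unit is not counts. Differences of response were tested as interactions with the library as a block, on summed UMIs against all other nuclei and on mean deposited values against neurons. Sub-clusters came from leidenalg 0.10.2 (707 called genes left out, 1500 genes, 20 components, 15 neighbours, resolution 0.6). No doublet caller was run, and the sources used here do not give one. The scripts were tested on simulated data.

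Named genes were the glial markers, up to 10 genes a direction and comparison with the smallest adjusted p among those called by both tests at no less than 0.5 UMIs per 10000 in a group, and called members of the lists. The cluster, its lists and its classes were chosen with earlier results of these data known. Day 2 and day 5 follow the sample titles, while the library names carry other numbers, and the labels give both 7 and 5 days at 29 °C. Alternatives were other filters, scalings and blocks, thinning to 500 UMIs, leaving out nuclei or each library, and weighting the 3 classes alike. The last was chosen after seeing the data. Replicate numbers did not pair the libraries.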

Additional observations from a re-analysis of the deposited data

Results flagged for a closer look

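For the genes below, the change with starvation differed between cluster 8 and other nuclei by a test of the difference itself (limma interaction, adjusted p below 0.05). Each value is the log2 change in cluster 8 minus that in all other nuclei, so that a positive value is a more upward change in cluster 8. At day 5 the values were 1.33 for *Eaat1*, 1.87 for *Eaat2*, 0.645 for *CG32521*, 0.909 for *CG5953*, 1.42 for *RhoGAP100F*, 1.18 for *Glut4EF*, 0.956 for *side-VIII*, 0.404 for *Rbfox1* and 0.772 for *drpr*, an engulfment receptor that overlaps another gene on its strand. At day 2 they were 0.703 for *Glut4EF* and 0.432 for *Rbfox1*. *Eaat2* and *drpr* were not called within cluster 8. Taken cluster by cluster at day 5, *CG32521* was called higher in 7 and lower in 0 of 17 other clusters, and *CG5953* in 7 and 1 of 17. A rise of these genes was thus not particular to cluster 8. *Rbfox1* was called higher in 3 and lower in 1 of 18, *RhoGAP100F* in 2 and 0 of 11, and *Glut4EF* in 2 and 4 of 18. *side-VIII* was called higher in 0 and lower in 1 of 4, *Eaat2* in 0 and 4 of 10 and *drpr* in 0 and 5 of 18.

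For 3 of the 16 tested eggshell genes the fall was smaller in cluster 8 than in the other nuclei, by 3.17 for *Cp7Fc* and 4.38 for *Vml* at day 5 and by 4.73 and 4.60 for *dec-1* at day 2 and day 5. Others had a larger fitted fall in cluster 8 with no call of the difference, such as *Cp15* at day 5 (-6.68 against -5.62, adjusted p = 0.316). These genes were at few UMIs in cluster 8, and *Cp7Fc* had none there after starvation, so its fitted value depends on the added 0.5.

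Changes that were more downward in cluster 8 than in the pooled other nuclei at day 5 were -0.763 for *Cyp4g1*, -2.01 for *eloF*, a fatty acid elongase, -0.988 for *bdg*, -1.22 for *Desat1*, -2.44 for *Pvf2*, -1.01 for *Dl*, -1.47 for *axed*, -1.71 for *Mctp*, -3.16 for *klu*, -1.05 for *mew* and -1.93 for *E(spl)m3-HLH*, a Notch target. *bdg* rose in cluster 8, and less than in the pooled other nuclei. Taken cluster by cluster, *Cyp4g1* was also lower in 16 of 18 other clusters and *eloF* in 10 of 17, and *Desat1* was called higher in 1 of 18, so these values are not particular to cluster 8. *Dl* was also lower in 5 of 16. *klu* was called higher in 3 and lower in 1 of 16, and *mew* higher in 3 and lower in 2 of 18.

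Against the neuron cluster, where the value is a difference of mean deposited natural log values, the change at day 5 was more upward in cluster 8 by 0.888 for *fru*, 0.853 for *side-VIII*, 0.518 for *CG5953*, 0.490 for *Rbfox1* and 0.439 for *tim*.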

How the results depend on the processing

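Counts of called genes moved with the filter, the scaling, the libraries in the fit and thinning, which also used summed UMIs and left 2431 genes to test. At day 2 against fed, where 85 genes were called, the count was 35 with no filter, 44 with median-ratio factors on summed UMIs, 129 with only the 4 libraries compared and 21 after thinning, and leaving out 1 library gave 46 to 127. At day 5, with 652 genes, it was 127 with no filter, 306 on summed UMIs, 301 with median-ratio factors (136 higher, 165 lower) and 135 after thinning, and leaving out 1 library gave 96 to 616. Between day 5 and day 2, with 223 genes, it was 0 with no filter (limma, 1591 genes at an unadjusted p below 0.05), 30 with only the 4 libraries and 50 after thinning, and leaving out 1 library gave 12 to 258. Without the tenth of nuclei with the most UMIs the counts were 67, 477 and 173, and without nuclei with at least 2 neuron markers 65, 480 and 180. The share of cluster 8 passed the threshold at day 2 only among nuclei outside the ovary and germline clusters (0.219). For responses against neurons, with 3 and 17 genes, summed UMIs gave 36 at day 5 (3 of the 17 among them), and leaving out 1 library gave 0 to 15 and 0 to 106. Against all other nuclei, with 18 and 246, the mean deposited value gave 3 at day 2 (0 of the 18 among them) and 234 at day 5 (75 of the 246), and leaving out 1 library gave 0 to 62 and 19 to 497. *sbm* at day 5 turned from -0.27 to 0.042 on summed UMIs and 0.138 with median-ratio factors. The cause of these differences was not tested.

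The replicate block gave 97, 664 and 234 called genes. Same-numbered libraries had correlations of -0.009, 0.033 and 0.018, so the numbers were not taken as pairs. With the block, responses differed from neurons in 0 genes at day 2 (limma, 235 at an unadjusted p below 0.05) and 7 at day 5, and from other nuclei in 6 at day 2. Of 304 results of single genes, 58 lost the threshold without fed replicate 1 and 51 without fed replicate 2. Day 5 libraries held 129 and 142 cluster 8 nuclei, which limits the precision there.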
